A study of Mus musculus with 12 samples.

Results

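The PHLDA family comprises 3 small genes, Phlda1, Phlda2 and Phlda3, taken here by their symbols from the 54532 genes of one RNA-seq table of mouse embryonic fibroblasts (MEFs, connective tissue cells grown from mouse embryos). The cells were either wild type or CHIP-KO, that is, lacking the chaperone-linked ubiquitin ligase CHIP (gene Stub1), and RNA was taken either without heating or after 1 hour at 43 °C, with 3 libraries for each of the 4 groups. Phlda1 was chosen because it rose strongly with heat in both genotypes, so its heat values are given as a description without a test, while Phlda2 and Phlda3 joined it by family name. Of the 3 genes, 2 (Phlda1 and Phlda3) passed the filter on low values described below and entered the fit across all genes. No group carried any other allele or agent that the labels name. How the CHIP-KO cells were made, and whether each genotype is 1 clone, is not given in the sources used here, so CHIP loss and any other difference between the cell populations cannot be told apart.

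PHLDA proteins (pleckstrin homology-like domain, family A) share a pleckstrin homology-like fold, the module with which many signalling proteins bind phosphoinositide lipids at membranes. Phlda1, also called TDAG51, is an early response gene induced by growth factor signalling and several kinds of stress, and it has been linked to cell death and to feedback on receptor kinases. Phlda2 is an imprinted gene, expressed from the maternal copy, that restrains growth of the placenta. Phlda3 is a direct target of the tumour suppressor p53, and its protein competes with the kinase AKT for membrane lipids.

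The members are related in sequence but far too different for their reads to be confused over any length, and the stretches below are shown for that reason. The best matching stretch of 66 coding bases without gaps, from the GENCODE M21 transcripts on GRCm38, lies at chr10:111506873-111506938 (plus strand) in Phlda1, chr7:143502362-143502427 (minus strand) in Phlda2 and chr1:135766479-135766544 (plus strand) in Phlda3. Capitals mark the 49 bases that are identical in all 3 genes.
Phlda1: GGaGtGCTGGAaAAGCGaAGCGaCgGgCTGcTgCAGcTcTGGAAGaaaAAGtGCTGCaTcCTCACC
Phlda2: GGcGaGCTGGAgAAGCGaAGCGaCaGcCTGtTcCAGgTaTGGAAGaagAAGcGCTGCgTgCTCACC
Phlda3: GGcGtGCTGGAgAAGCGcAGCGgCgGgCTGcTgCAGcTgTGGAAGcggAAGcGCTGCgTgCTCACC
Within this stretch Phlda3 matched Phlda1 and Phlda2 at 55 of 66 bases each, and Phlda1 matched Phlda2 at 53.

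The longest identical run between any transcripts of the members was 20 bases, GAAGCGCTGCGTGCTCACCG, shared by Phlda2 and Phlda3. Phlda1 shared at most 15 bases with Phlda3 and 13 with Phlda2, against a read length of 150 bases per the labels. Phlda1 also has the longest coding sequence, 1215 bases before the stop codon against 432 in Phlda2 and 375 in Phlda3. Phlda1 also holds repeats rich in CAN codons, which encode glutamine or histidine, downstream of the shared stretch. Such codons make up 18.5% of Phlda1 codons, 4.86% of Phlda2 codons and 6.40% of Phlda3 codons. CCN codons, which encode proline, differ as well, with 16.05% in Phlda1, 3.47% in Phlda2 and 2.4% in Phlda3. The 120 bases densest in CAN codons, at chr10:111507275-111507394 on the plus strand, hold 22 CAN codons among 40, shown in capitals. Many of the other codons there are CCN. This stretch is printed as a part that sets Phlda1 apart from the other members.
Phlda1 repeat: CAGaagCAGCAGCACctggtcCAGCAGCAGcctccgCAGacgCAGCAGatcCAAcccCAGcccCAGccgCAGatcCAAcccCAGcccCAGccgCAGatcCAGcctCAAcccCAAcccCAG

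The table gives FPKM, fragment counts scaled by gene length and by a total per library, so levels can be compared between genes. The 13023 genes with at least 1 FPKM in at least 3 libraries were fitted together with limma, a linear model with moderated variances, and p was adjusted over all of them by the Benjamini-Hochberg method. The 4 comparisons between groups share samples with each other, so each is given by its own values. Depth recovered from the table was 15591924 to 26954112 fragments per library. Stub1 was between 53.8 and 64.1 FPKM in the 6 wild-type libraries and between 0.722 and 1.17 FPKM in the 6 CHIP-KO libraries, so its level matched the genotype label in all 12. Of 11 fibroblast markers, 8 reached 1 FPKM in wild type and 10 in CHIP-KO, and their summed level was 1695 to 2063, 2684 to 3015, 3488 to 3681 and 4011 to 4253 FPKM in unheated and heated wild type and unheated and heated CHIP-KO. The fibroblast marker Lum was near absent in both genotypes, at most 0.176 FPKM in any library. Dcn and Thy1 had means of 0.0153 and 0.00524 FPKM in unheated wild type against 1.31 and 8.28 FPKM in unheated CHIP-KO. Col1a2 and Pdgfra also differed, with 35.6 and 1.00 FPKM against 517 and 19.1 FPKM. Vim alone on this list was lower in unheated CHIP-KO (492 against 599 FPKM). Leukocyte markers summed to 1.86 to 2.98 and 12.4 to 15.6 FPKM in unheated and heated wild type and to 3.92 to 4.41 and 8.62 to 10.7 FPKM in CHIP-KO, nearly all of it Cd68, while Adgre1 was listed at 0 in all libraries and Ptprc reached at most 0.0104 FPKM. Epithelial, endothelial, skeletal muscle and neural lists summed to at most 5.52 FPKM in any library, and the part of these marker shifts in the results was not tested. Both wild-type replicates 1 stood apart from the other libraries of their groups, with limma library weights of 0.192 unheated and 0.165 heated. Values without them are given where they move a result for a member.

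Phlda1 (ENSMUSG00000020205, GRCm38 chromosome 10, positions 111506286 to 111508645, plus strand, 2 exons with the whole coding sequence in the first) went from a mid-level to one of the most abundant transcripts after heat. Wild-type replicates 1, 2 and 3 stood at 7.28, 7.23 and 5.51 FPKM unheated. After heat the same numbers stood at 215, 165 and 163 FPKM. These values rest on 253 to 312 fragments per unheated and 6259 to 9154 per heated library. The lowest heated wild-type library lay far above the highest unheated one, and replicate 1 was the highest of its group. The mean rose from 6.67 ± 1.01 to 181 ± 29.6 FPKM (SD, n = 3), a ratio of means of 27.1. Among 13023 genes above the filter on low values, Phlda1 ranked 6780th by level in unheated and 191st in heated wild type.

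CHIP-KO cells also showed a large rise, from a higher start. Replicates 1, 2 and 3 stood at 9.25, 9.60 and 8.95 FPKM unheated. After heat they stood at 264, 253 and 214 FPKM. With 458 to 571 and 9576 to 14852 fragments, the groups were again far apart, and replicate 3 was the lowest of the heated group. The mean went from 9.27 ± 0.322 to 244 ± 26.4 FPKM (SD, n = 3), a ratio of means of 26.3, and the rank by level from 5733rd to 141st. On the log2(FPKM + 1) scale, which understates changes of low genes, Phlda1 changed with heat by 4.56 in wild type (95% interval 4.29 to 4.84) and 4.57 in CHIP-KO (95% interval 4.29 to 4.84), the 9th and 7th largest rises among 13023 genes. As Phlda1 was chosen by these changes, they carry no test. For reference, 29.3% of all genes were higher without overlap of groups in heated wild type and 22.8% in heated CHIP-KO.

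**Figure D1:**
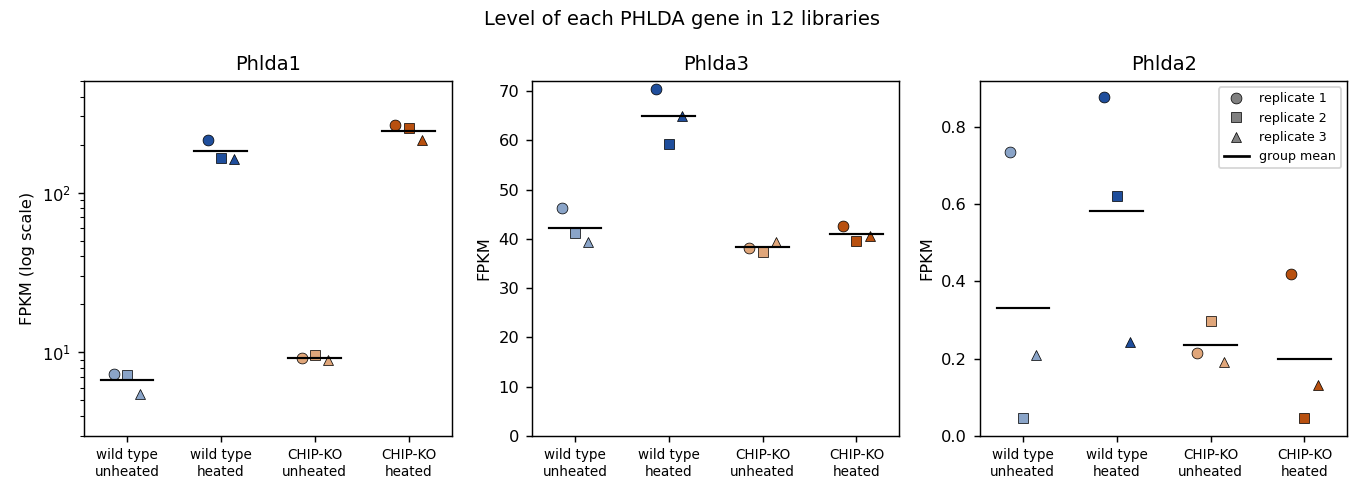
FPKM of Phlda1 (log axis), Phlda3 and Phlda2 (linear axes) in the 12 libraries, 3 per group, with symbols for replicate numbers and a line at each group mean. Phlda1 lies at 5.51 to 9.60 FPKM in the unheated and 163 to 264 FPKM in the heated libraries, Phlda3 is highest in heated wild type (59.3 to 70.4 FPKM), and Phlda2 stays under 1 FPKM.

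The Phlda1 rises in the 2 genotypes were close in size. The difference between the 2 heat changes (CHIP-KO minus wild type) was 0.0046 on the log2 scale, with a 95% interval from -0.39 to 0.39. An interval of this width includes differences of up to 1.31-fold in favour of CHIP-KO and a ratio down to 0.766, so equal rises were not shown either. This interval is a description, since both changes chose the gene.

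The level of Phlda1 did differ between genotypes, a comparison its choice did not use. Without heat, all 3 CHIP-KO libraries (8.95 to 9.60 FPKM) lay above all 3 wild-type libraries (5.51 to 7.28 FPKM), with a log2 difference of 0.43 (SE 0.13) or 1.35-fold and limma adjusted p = 0.0151. In this comparison 48.5% of all genes were called, 23.9% as higher in CHIP-KO, and 30.1% were higher without overlap. An exact permutation test of mean FPKM (two-sided) gave p = 0.1, the smallest that 3 against 3 libraries allow. Without wild-type unheated replicate 3, the lowest of the 12 libraries, the difference was 0.31 at limma adjusted p = 0.0604.

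After heat, Phlda1 was again 1.35-fold higher in CHIP-KO on the log scale, by 0.43 (SE 0.13, limma adjusted p = 0.0165, with 42.4% of all genes called and 23.3% called higher). Here the groups overlapped, since heated wild-type replicate 1 (215 FPKM) stood just above heated CHIP-KO replicate 3 (214 FPKM), and the exact permutation test gave p = 0.2. The call was lost with quantile normalization (0.33, limma adjusted p = 0.0726). It was also lost without heated wild-type replicate 2 (0.37, limma adjusted p = 0.0582) or 3 (0.36, limma adjusted p = 0.0642), and without heated CHIP-KO replicate 1 (0.37, limma adjusted p = 0.0613) or 2 (0.40, limma adjusted p = 0.0560). Without both wild-type replicates 1 the difference was 0.56 (limma adjusted p = 0.00222).

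**Figure D2:**
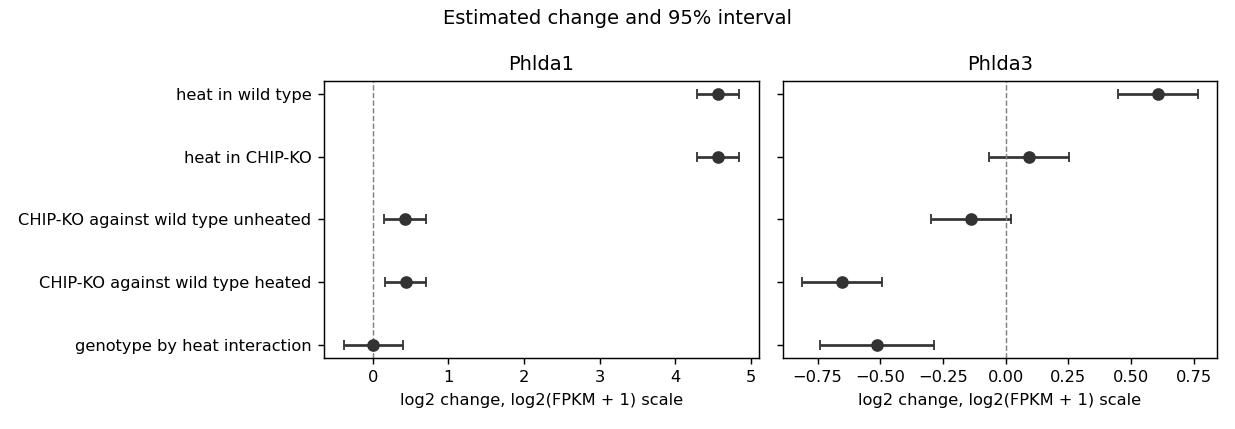
Estimated log2 change (points) with its 95% interval (bars) on the log2(FPKM + 1) scale for Phlda1 and Phlda3 in 5 comparisons, from the fit over all 12 libraries, with a different scale in each panel. The intervals of the Phlda1 heat changes coincide between genotypes, while Phlda3 changes with heat by 0.61 in wild type and 0.09 in CHIP-KO.

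Genes with the profile most like that of Phlda1 were looked for among 10755 other protein-coding genes, by the root mean square difference between log2(FPKM + 1) profiles over 12 libraries after each was centred on its own mean. As a description, the closest were the small heat shock protein gene Hspb1 (difference 0.370), the transcription factor gene Atf3 (0.480), the HSP40 co-chaperone gene Dnajb1 (0.504) and the AP-1 genes Jun (0.510) and Fos (0.656), against a median of 2.32 over all genes compared. Hspb1 went from 88.4 ± 8.75 to 1548 ± 590 FPKM in wild type and from 85.4 ± 2.16 to 1528 ± 402 FPKM in CHIP-KO. Atf3 went from 5.22 ± 0.330 to 245 ± 149 FPKM and from 5.39 ± 0.503 to 237 ± 107 FPKM. Heated replicate 1 was the highest of its group in both genotypes for Hspb1, Atf3, Dnajb1, Jun and Fos, as it was for Phlda1, and Atf3 reached 416 FPKM in that wild-type library against 145 in replicate 3. As these genes were chosen for likeness to Phlda1 over all 12 libraries, their genotype differences are given without a test. They are no separate support for the difference in Phlda1. On the log2 scale, CHIP-KO minus wild type, Hspb1 differed by -0.05 without heat and 0.01 after heat. Atf3 differed by 0.04 and 0.02, and Dnajb1 by 0.45 and 0.86. Jun was 1.48 higher on the log2 scale in unheated CHIP-KO and 1.31 higher in heated CHIP-KO. Fos was 1.90 higher in unheated CHIP-KO and -0.03 apart after heat.

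**Figure D3:**
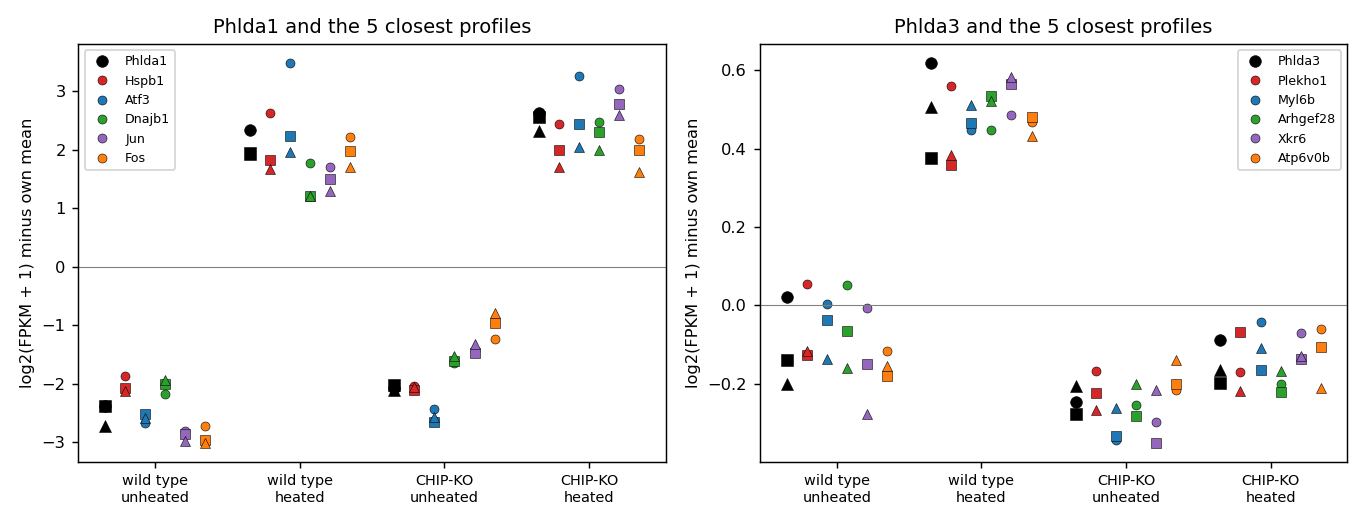
log2(FPKM + 1) minus each gene's own mean, by library (circles, squares and triangles for replicates 1, 2 and 3), for Phlda1 and Phlda3 (black) and the 5 protein-coding genes with the closest profiles. The Phlda1 panel splits by heat in both genotypes, while in the Phlda3 panel the 3 heated wild-type libraries lie above the rest for each gene.

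Near Phlda1, within 100 kb, 3 other genes were above the filter. The transcribed pseudogene Gm5176 (positions 111500739 to 111501965, same strand, starting 5547 bases before Phlda1) had wild-type levels of 0.362, 0.333 and 0.844 FPKM before and 7.90, 6.68 and 5.35 FPKM after heat. In CHIP-KO its levels were 0.587, 0.453 and 0.141 FPKM before and 5.20, 4.83 and 5.46 FPKM after heat. All heated libraries of Gm5176 thus lay above all unheated ones, but it passed the filter only through the heated libraries, so no test is given. The heated values rest on 114 to 187 fragments per library, and some reads could belong to its parent gene. The histone chaperone gene Nap1l1, 33063 bases before Phlda1, fell in heated wild type by 0.62 (137 ± 23.7 to 87.7 ± 4.55 FPKM, limma adjusted p = 2.51e-04) and changed by 0.07 in CHIP-KO (limma adjusted p = 0.694). The snoRNA gene Gm25117 passed no test of heat. The lincRNA gene Gm28592 overlaps Phlda1 on the other strand and was listed at 0 in all 12 libraries, and whether the counting used strand is not given in the sources used here.

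Phlda3 (ENSMUSG00000041801, GRCm38 chromosome 1, positions 135766119 to 135769136, plus strand, 2 exons with the coding sequence in the first) was the most abundant member without heat. Unheated wild-type replicates 1, 2 and 3 stood at 46.2, 41.2 and 39.4 FPKM. After heat they stood at 70.4, 59.3 and 65.0 FPKM. All heated libraries lay above all unheated ones, with means of 42.3 ± 3.51 and 64.9 ± 5.54 FPKM (SD, n = 3). The rise was 1.52-fold or 0.61 on the log2 scale (SE 0.07, limma adjusted p = 3.52e-05). Of all genes 58.7% were called in this comparison, 28.1% as higher and 30.5% as lower, and 29.3% were higher without overlap, so a call alone places Phlda3 among many genes.

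CHIP-KO cells showed almost no such change. Replicates 1, 2 and 3 stood at 38.2, 37.3 and 39.3 FPKM unheated. After heat they stood at 42.7, 39.5 and 40.5 FPKM. The heated libraries were all slightly higher (38.3 ± 0.976 against 40.9 ± 1.62 FPKM, SD, n = 3), as were 22.8% of all genes without overlap. The log2 change of 0.09 (95% interval -0.07 to 0.25) did not pass (limma adjusted p = 0.405), in a comparison with 20.0% of genes called, 8.65% higher and 11.4% lower. The interaction, which tests the difference between the heat changes directly, was -0.51 (95% interval -0.74 to -0.29, SE 0.10, limma adjusted p = 0.00275), with 35.2% of all genes called, 17.3% with a negative and 17.9% with a positive sign. Over 23 alternatives this difference ranged from -0.59 to -0.45 and passed in each, limma adjusted p from 5.42e-06 to 0.00945.

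Genotypes were then compared at each treatment for Phlda3. Without heat the CHIP-KO libraries (37.3 to 39.3 FPKM) lay just below the wild-type ones (39.4 to 46.2 FPKM), with 39.3 and 39.4 FPKM as the nearest pair, where 31.1% of all genes were lower without overlap and 24.5% were called lower. The log2 difference of -0.14 (95% interval -0.30 to 0.02) did not pass (limma adjusted p = 0.143). After heat Phlda3 was lower in CHIP-KO by 0.65 on the log2 scale (SE 0.07, limma adjusted p = 3.11e-05), at 63.0% of the wild-type mean. The highest heated CHIP-KO library (42.7 FPKM) lay below the lowest heated wild-type library (59.3 FPKM). By comparison 19.1% of all genes were called lower here and 22.7% were lower without overlap. For both treatments the exact permutation p was 0.1. These are bulk libraries, so less RNA per cell and fewer cells with the transcript cannot be told apart.

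The closest profiles to Phlda3, as a description over the same 10755 genes, belonged to Plekho1 (root mean square difference 0.0747), which also encodes a pleckstrin homology domain protein, and to Myl6b (0.0790), Arhgef28 (0.0799), Xkr6 (0.0815) and Atp6v0b (0.0842), against a median of 0.380. Plekho1 had means of 16.1 ± 1.24 FPKM before and 23.2 ± 1.87 FPKM after heat in wild type, and of 14.3 ± 0.534 and 15.1 ± 0.873 FPKM in CHIP-KO. Within 100 kb, the muscle and cytoskeleton gene Csrp1, 46058 bases before Phlda3 on the same strand, had an order of groups like that of Phlda3. It rose in heated wild type by 0.34 (154 ± 7.73 to 195 ± 9.98 FPKM, limma adjusted p = 5.64e-04), changed by 0.07 in CHIP-KO (limma adjusted p = 0.452) and had an interaction of -0.27 (limma adjusted p = 0.0298). The lincRNA gene Gm38399 passed no test of heat, and the troponin genes Tnni1 and Tnnt2 and the gene Lad1 were below the filter. Tnni1, starting 13315 bases after Phlda3, still had higher means after heat in both genotypes, without a test. They went from 0.0371 to 1.32 FPKM in wild type and from 0.279 to 0.799 FPKM in CHIP-KO.

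Phlda2 (ENSMUSG00000010760, GRCm38 chromosome 7, positions 143501545 to 143503150, minus strand) was barely detected and did not pass the filter of at least 1 FPKM in at least 3 libraries. In wild type, replicates 1, 2 and 3 stood at 0.736, 0.0456 and 0.210 FPKM unheated (13, 1 and 5 fragments). Heated wild type stood at 0.878, 0.623 and 0.244 FPKM (19, 12 and 5 fragments). Wild-type replicate 1 was the highest library in both treatments, and the groups overlapped. CHIP-KO stood at 0.214, 0.297 and 0.192 FPKM unheated (6, 9 and 5 fragments). Heated CHIP-KO stood at 0.419, 0.0464 and 0.132 FPKM (12, 1 and 3 fragments).

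The groups of Phlda2 overlapped in all 4 comparisons. The exact two-sided permutation test of mean FPKM gave p = 0.4 for heat in wild type, p = 0.8 for heat in CHIP-KO, p = 0.9 for genotype without heat and p = 0.2 for genotype after heat, where 0.1 is the smallest possible. With 91 fragments over all 12 libraries, a difference would have to be large to be detectable at this depth. A fit without the filter (29109 genes) gave limma adjusted p of 0.227 to 0.979 for its 5 comparisons.

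Phlda2 lies in the imprinted Kcnq1 domain, of which 6 of 12 listed genes were above the filter. In heated wild type 2 rose and 2 fell (median log2 change 0.051), where 28.1% of all genes were called higher and 30.5% lower. In heated CHIP-KO 0 rose and 1 fell (0.0076), where 8.65% of all genes were called higher and 11.4% lower. Between genotypes, 3 without and 4 after heat were higher in CHIP-KO with 0 lower (0.12 and 0.23). There 23.9% and 23.3% of all genes were called higher, and 24.5% and 19.1% lower. Neighbours of Phlda2 within 100 kb differed widely in level. Slc22a18, a transporter gene imprinted like Phlda2, was near its level (mean 0.188, 0.391, 0.0780 and 0.0705 FPKM in unheated and heated wild type and unheated and heated CHIP-KO). The imprinted cell cycle inhibitor gene Cdkn1c stood at 0.772 ± 0.175 and 1.96 ± 0.120 FPKM in wild type and 2.61 ± 0.0868 and 2.89 ± 0.507 FPKM in CHIP-KO. Cdkn1c was higher in CHIP-KO without heat by 1.03 on the log2 scale (limma adjusted p = 1.02e-05) and rose in heated wild type by 0.75 (limma adjusted p = 9.86e-05). Nap1l4 stayed between 35.3 and 38.8 FPKM in group means, and the tRNA synthetase gene Cars fell in heated wild type from 17.5 ± 1.28 to 7.16 ± 0.407 FPKM (limma adjusted p = 1.70e-07). Kcnq1 had group means of at most 0.0159 FPKM.

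The order of the members turned with heat, which is a description, since Phlda1 was chosen for its rise with heat. Without heat Phlda3 stood highest, then Phlda1 and Phlda2, and in each of the 6 unheated libraries the 3 levels were apart (37.3 to 46.2, 5.51 to 9.60 and 0.0456 to 0.736 FPKM). After heat Phlda1 (163 to 264 FPKM) stood above Phlda3 (39.5 to 70.4 FPKM) in each of the 6 heated libraries, and Phlda2 (0.0464 to 0.878 FPKM) remained lowest.

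Genes of the pathways in which the members act were compared with them, from 6 lists. Among 24 tested p53 targets, the class to which Phlda3 belongs, 9 rose and 5 fell in heated wild type. Their median log2 change was 0.12 against -0.016 over all genes, of which 28.1% were called higher and 30.5% lower. Cdkn1a, the cell cycle inhibitor p21, went from 7.73, 7.64 and 7.87 FPKM to 22.3, 20.0 and 21.1 FPKM in wild type, a rise of 1.34 (limma adjusted p = 3.54e-08). The death regulator genes Pmaip1 and Trp53inp1 rose by 1.58 (limma adjusted p = 2.00e-05) and 1.29 (limma adjusted p = 8.92e-07). In heated CHIP-KO 2 of the 24 rose and 6 fell (median -0.066 against -0.0018), where 8.65% of all genes were called higher and 11.4% lower. The polo-like kinase gene Plk2 rose by 1.00 (limma adjusted p = 0.00165) and Trp53inp1 fell by 0.56 (limma adjusted p = 0.00217), while Cdkn1a stood at 9.47, 9.89 and 10.8 FPKM before and 11.6, 10.3 and 10.9 FPKM after heat (limma adjusted p = 0.243).

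Between genotypes after heat, 13 of the 24 p53 targets were lower in CHIP-KO and 3 higher, with a median of -0.37 against 0.013 over all genes, of which 19.1% were called lower and 23.3% higher. Trp53inp1 was lower by 1.66 (limma adjusted p = 1.25e-07), Ccng1, which encodes cyclin G1, by 0.90 (limma adjusted p = 9.76e-06) and Cdkn1a by 0.89 (limma adjusted p = 6.98e-07). Without heat, where 24.5% of all genes were called lower and 23.9% higher, 9 of the 24 were lower and 6 higher, among them Pmaip1, higher by 1.91 (limma adjusted p = 4.84e-06), and Gtse1, a mitotic regulator of p53, lower by 1.03 (limma adjusted p = 3.09e-06). The interaction was negative for 8 and positive for 3 of the 24 (median -0.21 against -0.0029), with 17.3% of all genes called negative and 17.9% positive, and it was negative for Phlda3. Phlda3 itself was not on the list. The counts include Ddit4l, which passed the filter only through CHIP-KO libraries (0.980 to 1.58 FPKM, against 0.210 to 0.938 in wild type). Ddit4l was counted as higher in heated wild type, higher in unheated CHIP-KO and negative in interaction.

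The AKT side of the pathway, on which PHLDA3 acts as a brake, held called genes in both directions, as did the tested genes as a whole. Of 28 tested genes of PI3K and AKT signalling, 10 rose and 5 fell in heated wild type (median 0.11). There 28.1% of all genes were called higher and 30.5% lower. In heated CHIP-KO 1 rose and 2 fell (median -0.013), where 8.65% of all genes were called higher and 11.4% lower. In heated wild type the insulin receptor substrate genes Irs1 and Irs2 rose by 1.64 (limma adjusted p = 2.75e-04) and 1.23 (limma adjusted p = 8.17e-04), and the lipid kinase gene Pik3cb fell by 1.21 (limma adjusted p = 1.73e-05). The size of both Irs rises leaned on heated wild-type replicate 1. There Irs1 stood at 19.8 FPKM, against 8.63 and 9.89 in replicates 2 and 3, and Irs2 at 23.7 FPKM, against 12.8 and 12.3. After heat 8 were lower and 5 higher in CHIP-KO (19.1% and 23.3% of all genes), and without heat 5 were lower and 7 higher (24.5% and 23.9% of all genes).

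Genes that respond to the signals known to induce Phlda1 were listed in 3 sets. Of 7 tested genes of ERK output, 4 rose and 1 fell in each genotype (median 0.69 in wild type and 0.78 in CHIP-KO). The ERK feedback gene Spry2 rose by 2.13 in wild type (limma adjusted p = 4.48e-07) and 1.48 in CHIP-KO (limma adjusted p = 8.01e-05), and the ERK phosphatase gene Dusp6 by 1.90 (limma adjusted p = 8.12e-06) and 1.43 (limma adjusted p = 4.85e-04). Ccnd1, which encodes cyclin D1, fell by 2.22 in wild type (limma adjusted p = 1.77e-08), and the transcription factor gene Etv5 fell by 0.28 in CHIP-KO (limma adjusted p = 0.0329). Without heat 5 of the 7 were higher and 2 lower in CHIP-KO (23.9% and 24.5% of all genes), and Phlda1 was higher too.

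Of 16 targets of heat shock factor 1, 12 rose and 2 fell in heated wild type, and 13 rose and 0 fell in heated CHIP-KO (median 1.06 and 1.61). Hspa1a and Hspa1b, near-identical HSP70 genes whose reads may be split uncertainly, changed by more than Phlda1, with 8.39 and 6.96 in wild type (limma adjusted p = 2.47e-11 and 9.99e-12). Without heat 9 of the 16 were lower and 2 higher in CHIP-KO (24.5% and 23.9% of all genes), where Phlda1 was higher, and after heat 2 were lower and 3 higher (19.1% and 23.3% of all genes). The HSP110 gene Hsph1 was lower by 1.27 without heat (limma adjusted p = 0.00879). Genes of the unfolded protein response, another stress known to induce Phlda1, fell in 12 and rose in 2 of 16 cases in heated wild type (median -0.59), and fell in 4 and rose in 2 in heated CHIP-KO (median -0.055). The phosphatase subunit gene Ppp1r15a rose in both, by 1.91 (limma adjusted p = 5.87e-07) and 1.14 (limma adjusted p = 2.54e-04), and the pseudokinase gene Trib3 fell by 2.03 in wild type (limma adjusted p = 6.67e-07) and fell by 0.50 in CHIP-KO (limma adjusted p = 0.0289). The heat counts of these lists stand beside 28.1% of all genes called higher and 30.5% lower in wild type, and 8.65% higher and 11.4% lower in CHIP-KO.

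**Figure D4:**
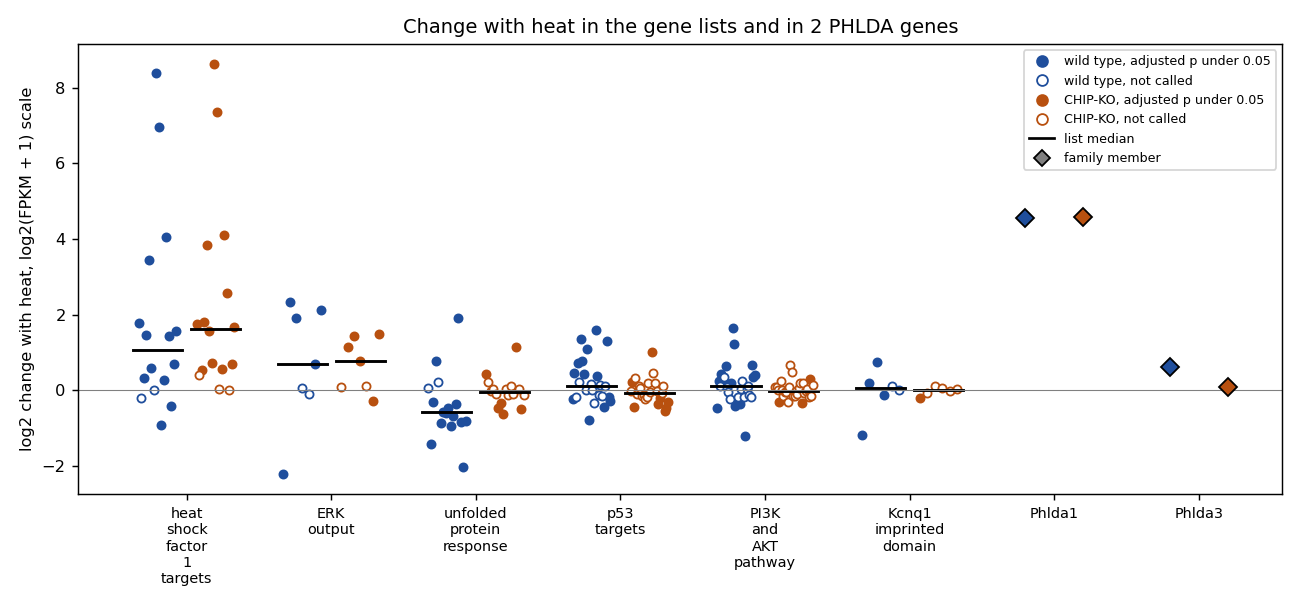
log2 change with heat on the log2(FPKM + 1) scale for each tested gene of 6 lists (circles, filled at limma adjusted p under 0.05) in wild type (blue) and CHIP-KO (orange), with the list median as a bar, and for Phlda1 and Phlda3 (diamonds). Phlda1 (4.56 and 4.57) lies above all listed genes but Hspa1a and Hspa1b, and Phlda3 (0.61 and 0.09) lies within the range of the p53 targets.

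The bases upstream of the start were searched for short motifs in RefSeq promoters on GRCm38.p6, where Phlda2 and Phlda3 had an entry. In the 250 bases before the start, on both strands, neither held a heat shock element pair (GAANNTTC or TTCNNGAA, in 12.8% of 32851 promoters), an AP-1 site (TGANTCA, 6.75%), a CRE core (TGACGT, 6.47%), a CArG box (1.47%) or a p53 half-site (7.13%). Phlda2 held 1 TATA motif (TATAAA, 12.4%), 30 bases before the start, and Phlda3 none. The absence of these letters from the window says nothing about binding elsewhere.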

How the data were processed

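The deposited table holds FPKM values made by the authors, with 1 column for each of the 12 libraries, and gene lengths in bases. HISAT2 is the aligner named in the submitters' processing notes; the counting tool, strand setting and annotation, not given in the sources used here, could change values of overlapping genes. Multiplying each FPKM by its gene length gave whole steps in every library (100% of values above 0, tolerance 0.01), from which fragments per library were recovered. Of 54532 gene identifiers, 53499 had identical positions in GENCODE M21, so positions are on GRCm38.

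Genes with at least 1 FPKM in at least 3 of 12 libraries were kept (13023). Log2(FPKM + 1) was fitted with limma 3.58.1 (R 4.3.3), a mean per group and a variance trend, two-sided, with Benjamini-Hochberg adjustment over all 13023 genes and calls at adjusted p under 0.05. Phlda2 was tested by exact permutation of mean FPKM. The steps were also run on simulated counts with few changed genes and no outlying library, a setting unlike these data. That run was a check of the steps and not of the calls given here. The labels do not say whether libraries came from separate cultures. The p-values therefore weigh group differences only against the spread between these libraries, and that spread may be technical. The printed 95% intervals are limma intervals from the spread between libraries.

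The members and the 6 lists were chosen with earlier results of these data known. Named genes were the members, Stub1, the 5 closest profiles, genes within 100 kb, and up to 3 genes per list and comparison with the largest called change. No closest profiles are given for Phlda2, which was below the filter. Alternatives covered pseudocount, filter, scaling, groups alone, library weights, replicate blocks, voom on recovered fragments and libraries left out. Figures were drawn with matplotlib 3.10.9. A gene that the rule named is not reported here.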

Additional observations from a re-analysis of the deposited data

Results flagged for a closer look

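The change with heat differed between genotypes for Phlda3 and for 34 other genes among those named by the rules above. This was judged by the interaction term of the limma fit at an adjusted p under 0.05. Values are log2 changes, CHIP-KO minus wild type. Many of the 34 were named because their interaction was called or because their profile was like that of Phlda3 or Phlda1. Their number therefore cannot be set against the 35.2% of all genes that passed this test. Phlda3 stood at -0.513. Among the genes with profiles closest to the members, Plekho1 stood at -0.428, Myl6b at -0.324, Arhgef28 at -0.51, Xkr6 at -0.514, Atp6v0b at -0.552 and Fos at -1.934. The first 5 were chosen for likeness to Phlda3 and Fos for likeness to Phlda1, over these same 12 libraries. Their values are therefore a description and no separate support for the interaction of Phlda3. Among neighbours, Nap1l1 stood at 0.689, Csrp1 at -0.27, Cars at 0.965, Cdkn1c at -0.645, and in the same imprinted domain Cd81 at -0.269.

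Among p53 targets, Trp53inp1 stood at -1.845, Fas at -1.32, Cdkn1a at -1.23, Pmaip1 at -1.117, Ddit4l at -0.582 and Xpc at -0.291, while Gtse1 stood at 0.613 and Plk2 at 1.343. Ddit4l passed the filter only through CHIP-KO libraries, so its value is a description without a test. Among PI3K and AKT genes, Foxo3 stood at -0.79, Rictor at -0.383 and Pik3cb at 1.392. Among ERK output genes, Ccnd1 stood at 2.315, Etv5 at -0.965 and Spry2 at -0.649. Among unfolded protein response genes, Trib3 stood at 1.529, Sdf2l1 at 0.877, Hspa5 at 0.816, Xbp1 at 0.697, Ddit3 at -0.748 and Ppp1r15a at -0.764. Among heat shock factor 1 targets, Hsp90aa1 stood at 0.983, Hspa4l at 0.943 and Hsp90ab1 at 0.71.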

How the results depend on the processing

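Phlda3 kept its direction and its side of the threshold in all 5 comparisons under every alternative run (23 or 24 each); its heat change in wild type ranged from 0.55 to 0.67 and its difference between genotypes after heat from -0.74 to -0.59. Phlda1 heat changes ranged from 4.42 to 4.74 in wild type and 4.45 to 4.70 in CHIP-KO, the last with a pseudocount of 0.1 FPKM (4.70), which moved it by more than the spread of replicates. Its unheated genotype difference ranged from 0.31 to 0.49 with 1 library left out, and the call was lost without wild-type unheated replicate 3 (limma adjusted p = 0.0604, range over all alternatives 0.00141 to 0.0604). Its heated genotype difference ranged from 0.36 to 0.56 with 1 library left out, 4 of which ended the call, and was 0.33 with quantile normalization (limma adjusted p = 0.0726, range over all alternatives 4.05e-05 to 0.0726). The cause was not tested. The Phlda1 interaction ranged from -0.11 to 0.16.

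Phlda2 differences in FPKM rest on few fragments. Its unheated genotype difference of -0.096 turned to 0.107 without wild-type unheated replicate 1 (range -0.238 to 0.107 with 1 library left out) and was 0.107 without both wild-type replicates 1. Its heat change in CHIP-KO of -0.036 ranged from -0.146 to 0.041 and turned without heated replicate 2. Limma alternatives other than the fit without a filter were not run for Phlda2.

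Libraries with the same replicate number were not treated as pairs, since their deviations from the group means had correlations from -0.12 to 0.33 over 12 pairs, not all above 0.1. Heated libraries of the same number correlated across genotypes for replicates 1 (0.33) and 3 (0.23) and less for replicate 2 (0.02), while within a genotype no unheated library correlated best with its own number. With the replicate block over all 12 libraries Phlda1 stayed at 0.43 in both genotype comparisons (limma adjusted p = 0.00335 and 0.00372), and the block changed no call of Phlda1 or Phlda3. With the replicate block 2606 genes were called for heat in CHIP-KO, and 1988 with the block within genotype.

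Background counts of genes called moved by over 1.5 times in some alternatives. For heat in wild type, 7640 became 5087 with a mean FPKM of at least 5. For heat in CHIP-KO, 2607 became 1578 with that filter, 4043 with these groups alone, 6201 with library weights, 3913 with voom, 4414 without both wild-type replicates 1, and 1687, 1627 and 1592 without unheated CHIP-KO replicates 1, 2 and 3. With library weights, 5525 genes became 8590 for genotype after heat and 4581 became 7403 for the interaction.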
